A study of Homo sapiens with 74 samples.

Results

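RBM5 and U2AF1 are pre-mRNA splicing factors with zinc fingers, and the regions described here are places in the genome where Cut&Run found V5 signal in both replicates of the libraries carrying those names. Peaks of the 2 replicates that shared at least 1 bp were merged into 1 region, and regions on exons of RBM5, U2AF1, USP39 and EEF1A1 were set aside because plasmid DNA has the same sequence. That left 112 of 124 RBM5 regions and 174 of 182 U2AF1-labelled regions, 286 in all, of 11548 regions found in both replicates over the 36 zinc-finger proteins (ZFPs) of the series. The cells were HEK293T, a human embryonic kidney line that is easily transfected. Each library came from 1 well of cells given a plasmid that drove a ZFP reading frame with a C-terminal V5 tag from the EF1-alpha promoter, collected after 48 h. Un-transfected cells taken through the same V5 immunoprecipitation were the mock IP, and every fold below is signal over that mock IP. In Cut&Run, nuclease tethered to an antibody cuts out the DNA around the tagged protein, so it reads position on chromatin and not on RNA.

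Splicing removes introns from RNA with the spliceosome, which is built from small nuclear RNAs (snRNAs) and proteins. U2AF1 recognises the AG at the end of an intron as the small partner of U2AF2, and RBM5 changes the choice of exons in transcripts such as FAS and CASP2 during assembly of the spliceosome. USP39, a ubiquitin protease homologue, helps the tri-snRNP join. Much splicing takes place while RNA is still being transcribed, and splicing factors can therefore lie near chromatin without binding DNA themselves.

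The exon peaks that were set aside differed between the names on the libraries and the genes. The RBM5 lists each had 11 peaks over RBM5 (hg38 chr3:50088919-50119021), every summit in a coding exon. Their folds were 444 to 1369 in replicate 1 and 493 to 1535 in replicate 2, and they touched 16 of 25 exons, from exon 3 to exon 18. Each of the libraries labelled U2AF1 had 7 peaks over USP39 (chr2:85602856-85649283), also with every summit in a coding exon, at 616 to 2716 in replicate 1 and 816 to 3226 in replicate 2. Neither list had a peak on exons of U2AF1 or at its copy on chr21:6484623-6499248. USP39 exon peaks occurred in 8 other lists, with at most 2 in a list and folds of 4.86 to 31.1, so the levels in the libraries labelled U2AF1 stand far above the rest. The check is uneven between genes. All 1793 overlapping 31-base words of the USP39 exons and all 2427 of the RBM5 exons occur once in hg38, but 12 of 705 (1.7%) of the U2AF1 exon words do, so most reads from a U2AF1 plasmid would match more than 1 place. The sole U2AF1 exon peak of the series, in ZNF22 replicate 1, was at 4.6-fold. Whether it lay on words found more than once was not tested. It therefore does not show that reads from a U2AF1 plasmid would be called. Because the exon peaks fit USP39 and not U2AF1, these libraries are called U2AF1-labelled, and which protein they carried cannot be settled from the peak lists alone. EEF1A1, whose promoter the plasmids use, had 1 peak in each list, at 1008 and 840 for RBM5 and at 3449 and 4265 for U2AF1-labelled.

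The RBM5 lists held 166 and 437 peaks and the U2AF1-labelled lists 461 and 459, against 15 to 8702 per list over the series. The study's methods give an approximate depth common to all libraries but no read total for each, so folds have no counting interval, and shares of regions carry exact 95% binomial (Clopper-Pearson) intervals that cover counting error only. The RBM5 replicates were uneven: 37 of the peaks of replicate 1 and 313 of those of replicate 2 had no partner in the other list.

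Nearly all of the regions lay in repeated or multi-copy sequence. For RBM5 the share was 98.2% (110 of 112, interval 93.7 to 99.8%) and for U2AF1-labelled 97.1% (169 of 174, 93.4 to 99.1%). Single lists held less of it, 86.9% and 90.8% for RBM5 replicates 1 and 2 and 71.1% and 59.0% for U2AF1-labelled. Other ZFPs ranged widely. Outside such sequence lay 1 of 227 LIN28B regions and 1 of 98 ZNF317 regions, but 1230 of 1367 APEX2 regions. At 99 RBM5 regions (88.4%) and 154 U2AF1-labelled regions (88.5%) the 31 bases around a summit occur more than once in hg38, so the exact copy from which reads came is not known at most of them. Sequences from the classes that made up these regions are shown first, read 5′ to 3′ from the plus strand of hg38. The most common class was satellite-like sequence, defined as at least 5 copies of ATTCC or its complement GGAAT within 100 bp of a summit, the unit of human satellites 2 and 3. The window at chr4:49149352-49149552 lies at a summit of a region found in all 4 lists, with the pentamers in capitals.
chr4 satellite: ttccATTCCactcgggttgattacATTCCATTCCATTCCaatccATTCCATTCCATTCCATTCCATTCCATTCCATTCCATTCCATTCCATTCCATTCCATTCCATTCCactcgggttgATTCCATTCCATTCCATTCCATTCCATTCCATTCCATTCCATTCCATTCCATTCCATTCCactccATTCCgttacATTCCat

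Alpha satellite, the 171-bp repeat of human centromeres, was the second satellite class. One repeat length is shown at the summit of the strongest such region of each protein, chr9:60636837-60637007 for RBM5 and chr17:24151153-24151323 for U2AF1-labelled. With the chr17 repeat taken in its best-matching phase and strand, 131 of the 171 chr9 bases (76.6%) were the same. No base is in capitals.
chr9 alpha: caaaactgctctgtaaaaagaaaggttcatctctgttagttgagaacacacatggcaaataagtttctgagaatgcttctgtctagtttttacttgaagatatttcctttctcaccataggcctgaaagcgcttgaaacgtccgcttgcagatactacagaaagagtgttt
chr17 alpha: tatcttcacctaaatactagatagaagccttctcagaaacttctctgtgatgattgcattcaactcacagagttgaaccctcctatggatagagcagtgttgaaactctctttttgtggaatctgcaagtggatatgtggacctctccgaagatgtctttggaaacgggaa

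Other tandem repeats, some inside genes and some outside, were a further class. Several inside genes were among the 10 U2AF1-labelled regions with the highest lower fold. Their units differ in length and base composition, as windows around the summits show for an intron of TMEM242 (chr6:157311788-157311923), an intron shared by ADAP1 and COX19 (chr7:906118-906257) and an intron of KLHDC4 (chr16:87739019-87739133). Every second stretch of the unit length is in capitals, of 34, 14 and 23 bases in that order. The ADAP1 stretches differ and shift in phase, so there the capitals mark the unit length only and not aligned copies.
TMEM242: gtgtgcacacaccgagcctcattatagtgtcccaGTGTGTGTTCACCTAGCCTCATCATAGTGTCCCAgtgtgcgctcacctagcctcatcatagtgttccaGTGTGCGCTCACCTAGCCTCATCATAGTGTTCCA
ADAP1: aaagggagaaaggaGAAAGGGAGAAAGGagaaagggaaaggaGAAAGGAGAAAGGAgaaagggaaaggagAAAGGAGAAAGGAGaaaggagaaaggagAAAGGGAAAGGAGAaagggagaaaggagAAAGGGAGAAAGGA
KLHDC4: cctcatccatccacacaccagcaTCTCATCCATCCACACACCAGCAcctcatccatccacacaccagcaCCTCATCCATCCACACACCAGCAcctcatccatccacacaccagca

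By class, satellite-like sequence made up 82 of 112 RBM5 regions (73.2%, interval 64.0 to 81.1%) and 95 of 174 U2AF1-labelled regions (54.6%, 46.9 to 62.1%). Of all 201-bp windows of hg38, 0.145% meet the same rule. These regions had low folds: the lower of the 2 replicates ran from 1.42 to 5.14 with a median of 2.58 for RBM5, and from 1.43 to 6.97 with a median of 2.79 for U2AF1-labelled. At the summit with the most pentamers in each region, the median was 23 for both proteins. The lowest such count was 8 for RBM5 and 10 for U2AF1-labelled. In the list of replicate 1 or 2 alone the share was 58.2% or 55.1% for RBM5 and 33.3% or 25.5% for U2AF1-labelled, so requiring both replicates raised it.

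**Figure D1:**
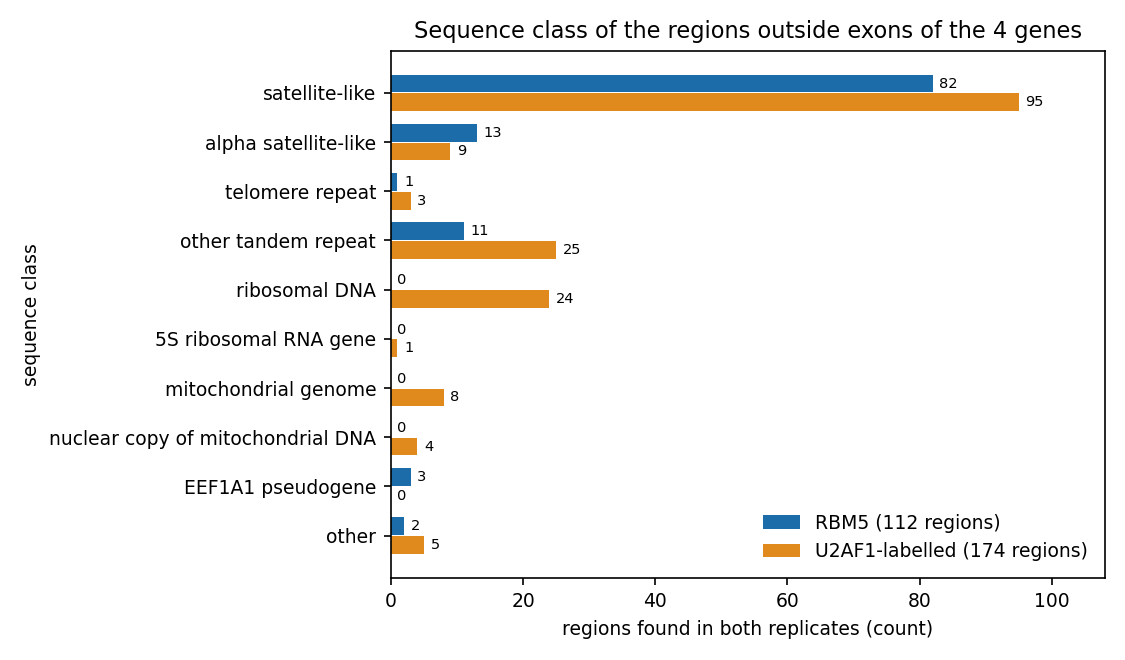
Number of regions found in both replicates (x axis, count) in each sequence class (y axis) for RBM5 and U2AF1-labelled. Satellite-like sequence is the longest bar for both, 82 and 95 regions, and ribosomal DNA, with 24 regions, appears for U2AF1-labelled alone.

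Many of the satellite-like regions fell into a few blocks, while 17 RBM5 and 14 U2AF1-labelled ones lay on contigs outside the annotated chromosomes. The largest block was on chromosome 4, with 25 RBM5 regions over chr4:49091783-49652400 and 28 U2AF1-labelled regions over chr4:49092361-49651978. Their lower folds were 2.06 to 4.4 and 1.46 to 4.84. Of the 25 RBM5 regions there, 16 were also peaks in both U2AF1-labelled lists. A block on chromosome 1 held 12 RBM5 regions (chr1:143189927-143266074) and 15 U2AF1-labelled regions (chr1:143184668-143266599). Other blocks were more uneven between the proteins. On chromosome 10, 12 U2AF1-labelled regions lay over chr10:41859266-41911842 against 4 RBM5 regions over chr10:41874811-42092008. On chromosome 20 there were 9 U2AF1-labelled regions (chr20:31052233-31186376) and 2 RBM5 regions (chr20:31186164-31241916). Several of these 9 had a peak in RBM5 replicate 2, at 2.37-fold to 3.8-fold, but not in RBM5 replicate 1. The rest had no RBM5 peak. A block of 5 RBM5 regions at chr1:125168470-125183125, with lower folds of 1.42 to 4.37, had no U2AF1-labelled region in both replicates and was found in 1 to 19 of the 68 lists of other ZFPs.

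The strongest satellite-like region of the U2AF1-labelled libraries was chr2:89820080-89820836, at 9.02-fold in replicate 1 and 6.97-fold in replicate 2. Another, chr10:41905383-41906613, was at 5.91-fold and 5.86-fold. Both belong to the 10 U2AF1-labelled regions with the highest lower fold, whereas the top 10 of RBM5 held no satellite-like region.

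Alpha satellite-like regions of the 2 proteins did not overlap, and most lay on different chromosomes. RBM5 had 13 (11.6%, interval 6.33 to 19.0%) with lower folds of 2.35 to 6.59, and 6 of them lay over chr9:60586778-60683326. U2AF1-labelled had 9 (5.17%, 2.39 to 9.59%) with lower folds of 4.37 to 9.23, and 6 of them lay over chr17:24150959-26595050. Chromosome 1 held some of both, 1 for RBM5 (chr1:123960079-123960449) and 2 for U2AF1-labelled (over chr1:123370017-123823989). None of the 13 was a peak in a U2AF1-labelled list and none of the 9 in an RBM5 list. Over all classes, 56 of 112 RBM5 regions and 93 of 174 U2AF1-labelled regions were likewise in no list of the other. Of 14814 windows of hg38 scanned in the same way, 2.72% were alpha satellite-like. Because the regions cluster in blocks, their intervals do not test a difference from that share.

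The highest fold among all U2AF1-labelled regions was the alpha satellite-like region chr17:24150959-24151784, at 13.4-fold and 9.23-fold. It was found in 38 of the 68 other lists. The next were chr17:26549083-26549509 at 8.3-fold and 5.98-fold, chr11:52825356-52825527 at 6.69-fold and 7.49-fold, and chr17:26140889-26141514 at 5.92-fold and 5.99-fold. For RBM5, chr9:60636677-60637141 was at 6.59-fold and 8.37-fold, and chr20:28497426-28498001 at 7.47-fold and 5.97-fold. Also among the top 10 of RBM5 were chrUn_KI270395v1:165-868 at 5.75-fold and 6.87-fold, chr9:60627499-60628120 at 5.44-fold and 6.73-fold, and chr9:60631227-60631625 at 5.22-fold and 7.9-fold. The RBM5 alpha satellite-like regions were found in few other lists, 0 to 16 of 68 with a median of 4, and chr9:60586778-60587219, at 4.96-fold and 5.19-fold, was the single region of all 286 with no peak in any other list of the series. The U2AF1-labelled ones were found in 7 to 58 other lists, with a median of 21. The class itself was common: 30 of the 32 other ZFPs with regions had at least 1 (median 5, highest 47). By count, 5 of them were above RBM5 and 6 above U2AF1-labelled. Since alpha satellite copies are alike and the placement of repeated reads is uncertain, chromosome assignments within the class are less certain than the class itself.

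**Figure D2:**
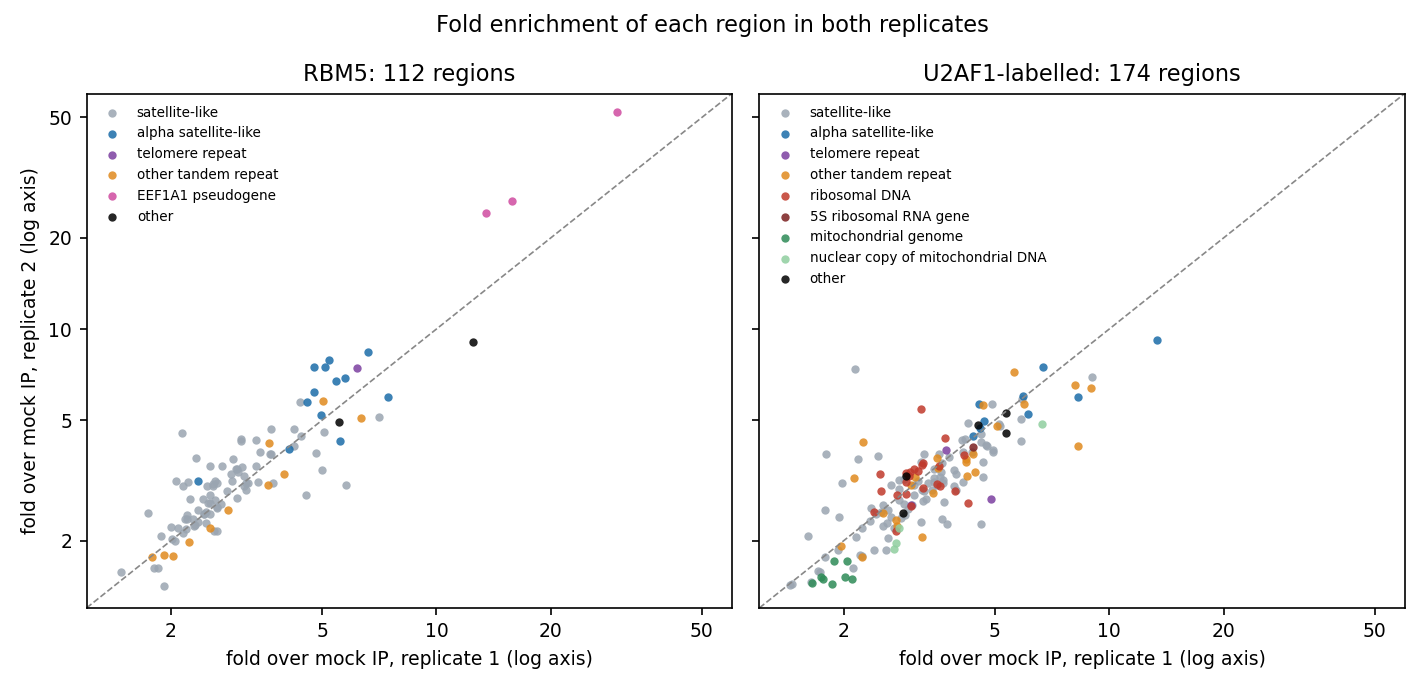
Fold over mock IP of every region in replicate 1 (x axis, log) and replicate 2 (y axis, log), 1 panel per protein, points coloured by sequence class. The 3 EEF1A1 pseudogene regions stand apart for RBM5, at 13.5-fold and above in both replicates, and the U2AF1-labelled regions reach 13.4-fold and 9.23-fold at an alpha satellite-like region.

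Telomere-type repeats, at least 10 copies of TTAGGG or its complement CCCTAA in a region, were rarer, with 1 RBM5 region and 3 U2AF1-labelled regions. The shared one lies at the start of chromosome 5. The RBM5 region there (chr5:10178-11668) was at 6.19-fold and 7.44-fold, and the U2AF1-labelled peaks over the same bases were at 4.88-fold and 2.75-fold. The RBM5 folds were higher without overlap between the 2 pairs of libraries. The region was also found in 60 of 68 other lists. The other 2 U2AF1-labelled telomere-type regions were at an intron of MICAL3 and at chrX:156030437-156030664, the latter at 3-fold and 2.63-fold.

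Other tandem repeats, with units of 10 to 400 bp that match the next copy at 40% of bases or more, made up 11 RBM5 regions (9.82%, interval 5.01 to 16.9%) and 25 U2AF1-labelled regions (14.4%, 9.52 to 20.5%). Tandem repeats of any unit, alpha satellite included, made up 3.54% of scanned windows of hg38. The TMEM242 repeat shown above gave U2AF1-labelled folds of 8.97 and 6.37 over chr6:157310904-157312288, and RBM5 peaks at 3.96-fold and 3.33-fold lay at its edge. TMEM242 encodes a membrane protein that helps assemble the mitochondrial ATP synthase. A second region on the same repeat, chr6:157312673-157313591, was at 3.53-fold and 3.76-fold for U2AF1-labelled, with no RBM5 peak. The first and second U2AF1-labelled regions on this repeat were in 54 and 37 of 68 other lists. A 15-bp repeat in an intron of PRDM15 (chr21:41806074-41806620) was at 8.11-fold and 6.56-fold for U2AF1-labelled and at 6.48-fold in RBM5 replicate 2, with no peak in RBM5 replicate 1. PRDM15 is itself a zinc-finger transcription factor, and the region in its intron was in 30 of 68 other lists. The KLHDC4 repeat (chr16:87738837-87739247) was at 5.95-fold and 5.66-fold, had no RBM5 peak, and was in 10 of 68 other lists.

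Further U2AF1-labelled tandem repeats lay in introns of named genes. One in PRKCA, which encodes a protein kinase C (chr17:66798769-66799444, 39-bp unit), was at 8.27-fold and 4.11-fold. One in TTC34 (chr1:2750071-2750583, 40-bp unit) was at 5.05-fold and 4.78-fold. The PRKCA region was in 44 of 68 other lists and the TTC34 region in 21. PTPRN2, which encodes a phosphatase-like protein of secretory granules, held neighbouring regions at 3.54-fold and 3.47-fold (chr7:158148455-158149115) and at 3.01-fold and 3.05-fold (chr7:158147108-158148301). A region at chr6:371627-372142 (39-bp unit) was at 4.39-fold and 3.88-fold. Its nearest gene was IRF4, a transcription factor of lymphocytes, whose start lay 19597 bp away. The PTPRN2 regions were in 41 and 47 of 68 other lists in that order, and the IRF4-nearest region in 29.

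For RBM5 the strongest of the class was a 12-bp repeat at chr21:43336319-43336687, at 6.33-fold and 5.1-fold, near the non-coding gene LINC00322. U2AF1-labelled replicate 1 had a peak there at 5.87-fold and replicate 2 none. An intergenic 15-bp repeat at chr1:29723447-29723665 was at 5.03-fold and 5.78-fold with no U2AF1-labelled peak. The remaining 9 had lower folds of 1.76 to 3.62.

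Ribosomal DNA (rDNA), the tandem genes for 18S, 5.8S and 28S ribosomal RNA, gave 24 U2AF1-labelled regions (13.8%, interval 9.04 to 19.8%) and 0 of 112 RBM5 regions, which allows a share of up to 3.24%. Their lower folds were 2.15 to 3.85 with a median of 2.98, and 12 lay on chromosome 21 and 12 on 2 contigs outside the assembled chromosomes. The regions repeat the same few places of the unit, since the assembly holds several copies of it. Bases around the start of the 45S precursor are shown from chrUn_GL000220v1:105334-105453, with the transcribed bases in capitals.
45S start: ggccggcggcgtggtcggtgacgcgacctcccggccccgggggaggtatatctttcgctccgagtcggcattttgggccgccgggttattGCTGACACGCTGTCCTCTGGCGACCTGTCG

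Placed on 1 unit, the 24 regions ran from 783 bp before the start of the precursor to position 14258, past its end at position 13357. Of them 2 lay wholly before the start, 2 crossed it, and 12 lay wholly in the 5′ external spacer, which is transcribed and then removed. None touched the 18S gene, 1 touched 5.8S and 4 touched 28S. The regions were therefore concentrated at the start of the transcribed unit rather than over the mature RNAs. RBM5 was not without rDNA peaks: replicate 1 alone had 1, at 1.96-fold, and replicate 2 alone had 4, with a median of 2.3-fold. Of the 32 other ZFPs with regions in both replicates, 30 had at least 1 rDNA region (median 27.5, highest 67), and each U2AF1-labelled rDNA region was in 22 to 48 of the 68 other lists. A 5S rRNA gene region (chr1:228635576-228635735, 587 bp from RNA5S12) was at 4.38-fold and 4.09-fold for U2AF1-labelled and in 17 of 68 other lists.

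**Figure D3:**
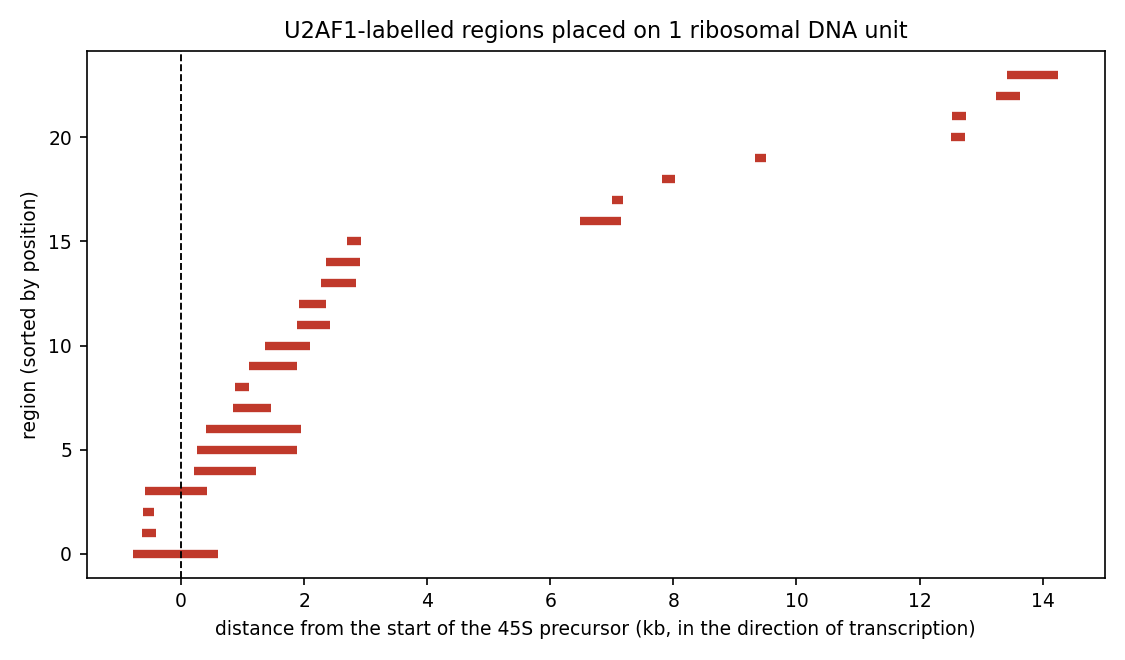
The 24 U2AF1-labelled ribosomal DNA regions (y axis, sorted by position) placed on 1 unit by distance from the start of the 45S precursor (x axis, kb), which a dashed line marks. Most lie in the 5′ external spacer, 12 of them wholly, and none overlaps 18S.

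The mitochondrial genome gave 8 U2AF1-labelled regions, with lower folds of 1.44 to 1.71 that were among the lowest of the set. They covered 5579 of 16569 bases (33.7%) and were in 32 to 38 of 68 other lists. Nuclear copies of mitochondrial DNA gave 4 more, of which chr11:10509359-10509711 near MIR4485 was at 6.65-fold and 4.87-fold. RBM5 had no region in either class, and 18 of the 32 other ZFPs had mitochondrial regions.

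The strongest RBM5 regions were processed pseudogenes of EEF1A1, intronless copies of the elongation factor mRNA. EEF1A1P5 (chr9:133019423-133019578) was at 29.9-fold in replicate 1 and 52.0-fold in replicate 2. All 156 bases of that region are identical to bases 1 to 156 of the spliced EEF1A1 mRNA, across the junction of exons 1 and 2, with no intron between. A 30-base stretch (chr9:133019441-133019470) spans the junction, with the exon 1 bases in capitals.
EEF1A1P5: GCCGCCAGAACACAGgtgtcgtgaaaacta

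EEF1A1P6, in an intron of STEAP1B (chr7:22512028-22512180), was at 15.8-fold and 26.4-fold. EEF1A1P13 (chr5:14653355-14653505) was at 13.5-fold and 24.1-fold. In both, 35 bases at 1 end of the region were identical to bases 1 to 35 of the mRNA, a stretch that ends just past the same junction. Each also shared a run of 35 bases with the unspliced EEF1A1 gene, so this match cannot tell spliced from unspliced sequence. All 3 were higher in replicate 2, and the order of the pseudogenes was the same in both replicates. The same 3 places were peaks in 4 other lists, the replicates of CTCF and RNF113A: EEF1A1P5 was at 52.2-fold and 67.5-fold for CTCF and at 117-fold and 154-fold for RNF113A. None was a peak in a U2AF1-labelled list, although EEF1A1 itself was higher there than in the RBM5 lists. The origin of the reads at these pseudogenes was not tested.

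In none of these classes were 2 RBM5 regions and 5 U2AF1-labelled regions, although 1 of the 2 and 3 of the 5 still had a summit word found more than once in hg38. The RBM5 region at RPS9, a small-subunit ribosomal protein gene (chr19:54206682-54206861), was at 12.5-fold and 9.05-fold. It lay on untranslated exon sequence of alternative RPS9 transcripts, its summits are unique in the genome, and it shared no run of more than 10 bases with the spliced RBM5, U2AF1, USP39 or EEF1A1 sequences. CPSF4L replicate 2 had a peak there at 11.4-fold and RNF113A replicate 1 at 32.8-fold. The other RBM5 region, chr10:5381187-5381504, lay between genes, 16221 bp from UCN3, which encodes the peptide urocortin 3, at 5.55-fold and 4.93-fold. It was in 1 other list, BRCA1 replicate 1, at 5.15-fold.

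The U2AF1-labelled regions of this kind lay at 2 promoters, in introns of a pair of non-coding genes and in an intron of DUX4. NFE2L2, which encodes the oxidative stress factor NRF2, had a region over a transcription start site (TSS; chr2:177263619-177263815) at 5.35-fold and 5.27-fold. PBX3, a homeobox gene, had one at chr9:125746153-125746430, on the divergent transcript PBX3-DT, at 5.35-fold and 4.54-fold. The PBX3 region is shown as the promoter example, with its 20 CG pairs in capitals.
PBX3: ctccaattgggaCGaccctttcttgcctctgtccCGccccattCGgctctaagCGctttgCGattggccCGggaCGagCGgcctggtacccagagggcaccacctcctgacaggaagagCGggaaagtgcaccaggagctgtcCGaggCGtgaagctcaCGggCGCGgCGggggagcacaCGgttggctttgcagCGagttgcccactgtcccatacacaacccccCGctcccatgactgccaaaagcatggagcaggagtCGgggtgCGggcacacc

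Neither promoter region was particular to these libraries, since NFE2L2 was in 32 and PBX3 in 23 of 68 other lists. On the X chromosome, an intron shared by the non-coding genes DANT1 and DANT2 (chrX:115888225-115888666) was at 4.52-fold and 4.82-fold, and an intron of DANT2 (chrX:115732430-115732613) at 2.91-fold and 3.27-fold. DUX4, the gene of the chromosome 4 end repeat, was the annotated gene at chr4:190181073-190181641, at 2.86-fold and 2.46-fold.

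Distances to genes were large. On chromosomes with annotation, the median distance to the nearest TSS was 73.6 kb for 89 RBM5 regions and 66.4 kb for 137 U2AF1-labelled regions. Summits lay between genes at 84 RBM5 regions, in introns at 4 and in an exon at 1, against 102, 21 and 14 for U2AF1-labelled. The nearest gene was a pseudogene at 52 and 67 regions and protein-coding at 22 and 37.

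Within 1 kb of a TSS there were 5 RBM5 regions (4.46%, interval 1.47 to 10.1%) and 26 U2AF1-labelled regions (14.9%, 10.0 to 21.1%). Of single genome bases 6.81% lie that near. That is a low comparison, since a region counts if any of its bases is that near. The 5 RBM5 regions were the 3 EEF1A1 pseudogenes, the ADAP1 repeat and the pseudogene ROCK1P1, the last at 1.92-fold and 1.8-fold. Without EEF1A1 copies and mitochondrial regions, a comparison chosen after seeing the data, the shares were 1.83% and 10.8%. In the list of replicate 1 or 2 alone they were 8.5% or 5.18% for RBM5 and 26.3% or 35.3% for U2AF1-labelled. ADAP1, which encodes a GTPase-activating protein for ARF6, was the single protein-coding gene with a start within 1 kb of a region in both proteins and all 4 lists. Its 14-bp repeat was at 5.63-fold and 7.2-fold for U2AF1-labelled (chr7:905654-906352) and at 3.62-fold and 4.19-fold for RBM5 (chr7:905985-906477). MICAL3, which encodes an actin-oxidising enzyme, had a region over a TSS with telomere-type hexamers (chr22:17876794-17877496) at 3.72-fold and 3.98-fold. MUC3A, a membrane mucin gene, had one on a 51-bp repeat (chr7:100957830-100958531) at 4.19-fold and 3.65-fold.

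No snRNA gene lay near a region. Of the 1901 snRNA genes of the annotation, most of them non-functional copies, 0 had a start within 1 kb of a region of RBM5 or of U2AF1-labelled, and 0 had one within 1 kb of a peak in any single one of the 4 lists. For comparison, 0.00797% of all 62700 annotated genes (5) were near an RBM5 region and 0.0989% (62) near a U2AF1-labelled region, so a count of 0 among 1901 genes is near the share for genes at large. The 31 expressed snRNA and related RNA genes that were found in the annotation, which include those of U1, U2, U4, U5 and U6, also gave 0 for both.

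Of 100 splicing factor genes, 0 had a TSS within 1 kb of a region of either protein. Among 20046 protein-coding genes the background was 0.00499% (1 gene, ADAP1) for RBM5 and 0.0898% (18 genes) for U2AF1-labelled, and 13 of those 18 were genes of the mitochondrial genome. The other 5 were ADAP1, MICAL3, MUC3A, NFE2L2 and PBX3. With 100 genes, a count of 0 is near these backgrounds and says little of the list. In single lists, protein-coding genes with a nearby peak numbered 7 and 12 for RBM5 and 94 and 145 for U2AF1-labelled. One splicing factor gene was among them, SRSF2, a serine/arginine-rich splicing regulator, named here after its values were seen. Its peak in U2AF1-labelled replicate 2 (chr17:76736220-76736429) was at 6.81-fold with a −log10 q of 5.23, and replicate 1 had none.

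The 2 proteins shared many of their regions, and both also shared many with other ZFPs. An RBM5 region was in a median of 29 of 68 other lists, and a U2AF1-labelled region in a median of 38.5. Of the 112 RBM5 regions, 46 (41.1%) were peaks in both U2AF1-labelled lists and 56 in neither. Of the 174 U2AF1-labelled regions, 42 (24.1%) were peaks in both RBM5 lists and 93 in neither. The 42 regions in all 4 lists were 37 satellite-like, 4 other tandem repeats and 1 telomere repeat. In 16 of them both RBM5 folds were above both U2AF1-labelled folds, in 15 the reverse held, and in 11 the folds overlapped, so neither protein was higher throughout. The lists were each called against a mock IP of their own batch, and no source used here says whether these libraries shared one, so shared regions need not be independent observations.

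**Figure D4:**
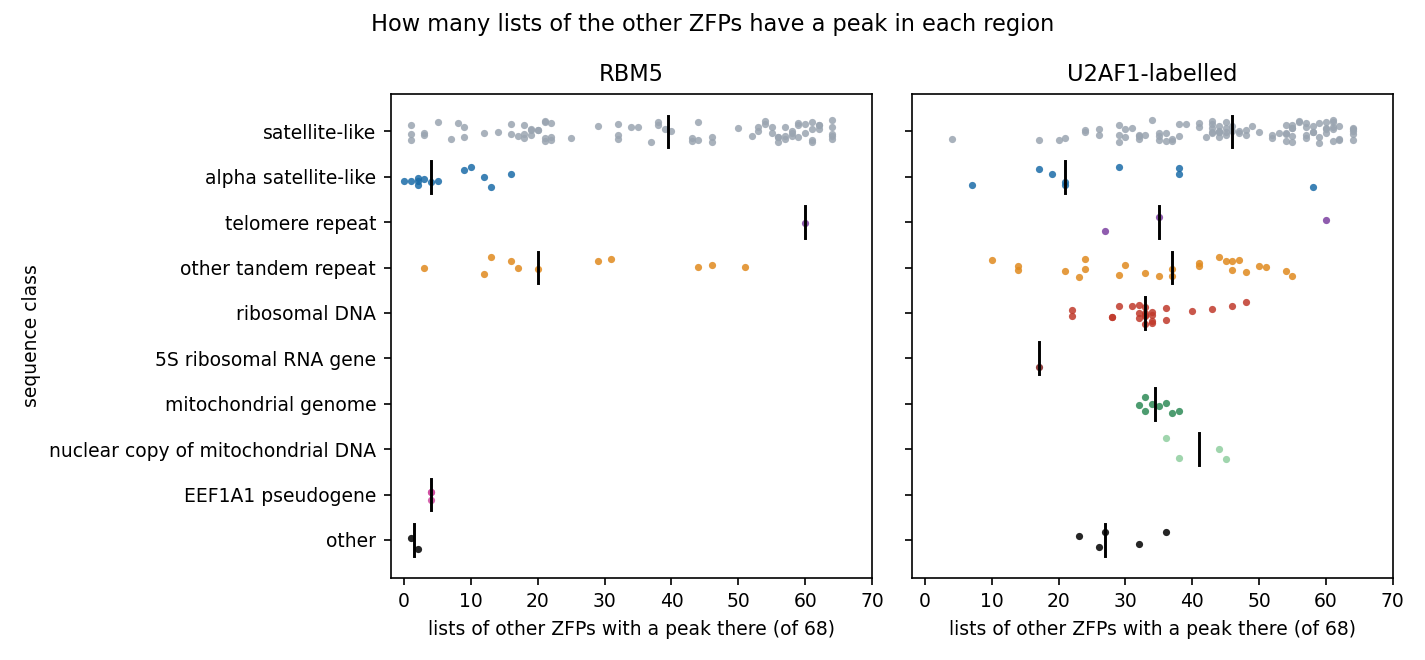
Number of lists of other ZFPs, of 68, with a peak in each region (x axis), by sequence class (y axis), 1 panel per protein and 1 point per region. RBM5 alpha satellite-like regions sit at 0 to 16 lists, while satellite-like regions reach 64 lists for both proteins.

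The regions were common in the series. A median of 29 of 68 other lists had a peak at an RBM5 region and 38.5 at a U2AF1-labelled region, and 64 was the highest for both. Satellite-like regions were in a median of 39.5 and 46 other lists. Among RBM5 regions in few lists were the EEF1A1 pseudogenes in 4 lists each, RPS9 in 2 and the UCN3-nearest region in 1, but satellite-like regions also went down to 1 list.

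Each ZFP was then given 1 value, its share of regions in a class, for a comparison with the 32 others that had regions in both replicates. The satellite-like share of RBM5 (73.2%) was below that of 1 other ZFP, ZNF317 at 84.7%, and above 31, the nearest of which was LIN28B at 72.2%. That of U2AF1-labelled (54.6%) was below 12 and above 20, and the median of the others was 43.6%. RBM5 and U2AF1-labelled together averaged 63.9% against 38.7%, a difference of 25.2 points that did not pass a two-sided exact permutation test over ZFPs (p = 0.191, adjusted over 2 measures 0.312, n = 2 against 32). Their share within 1 kb of a TSS averaged 9.7% against 31.4%, and 29 of 32 others were above RBM5 and 19 above U2AF1-labelled. This difference of -21.7 points did not pass either (exact permutation p = 0.312, adjusted 0.312). Leaving out replicate 1 of every ZFP narrowed the differences to 13.4 and -8.77 points. With 561 arrangements the smallest p that this exact permutation test could give was 0.00178.

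**Figure D5:**
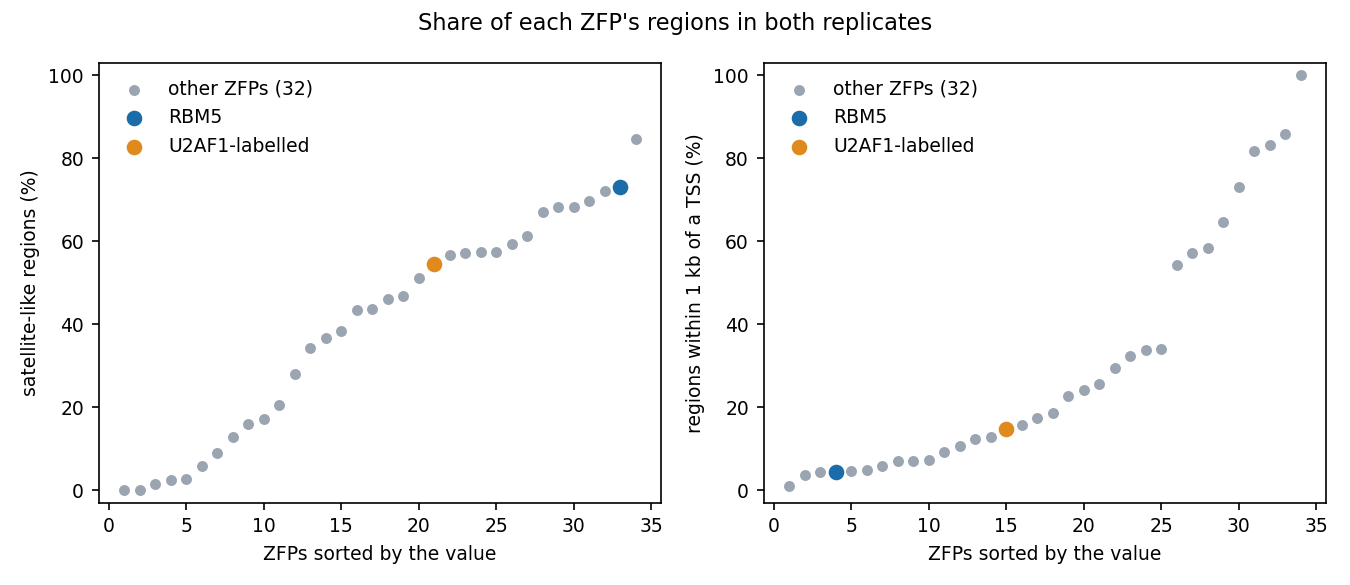
Satellite-like share and share within 1 kb of a TSS (y axes, percent of regions in both replicates) for each ZFP, sorted by value (x axis), with RBM5 and U2AF1-labelled in colour and 32 others in grey. RBM5 is second highest for satellite-like sequence at 73.2%, U2AF1-labelled lies nearer the middle at 54.6%, and neither stands outside the range of the others in either panel.

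Folds of the RBM5 regions were higher in replicate 2 at 68 of 112 regions, with a median log2 ratio of 0.07 and an SD of 0.32 over regions. For U2AF1-labelled, replicate 1 was higher at 121 of 174, with a median log2 ratio of replicate 2 over replicate 1 of -0.12 and an SD of 0.34. Peaks found in 1 replicate alone had a different make-up from the regions found in both. Among U2AF1-labelled peaks in 1 list alone, 125 of 272 (46.0%) in replicate 1 and 181 of 271 (66.8%) in replicate 2 were outside every repeat and multi-copy class, against 5 of 174 regions in both. For RBM5 these were 18 of 37 (48.6%) and 37 of 313 (11.8%), and in replicate 2 152 of the 313 (48.6%) were satellite-like. The U2AF1-labelled peaks of that kind had a median of 5.18-fold in each list, and the 5 regions of that kind in both replicates had a median lower fold of 4.52.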

How the data were processed

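Cut&Run with a V5 antibody was run on HEK293T cells 48 h after transfection, with 2 replicates of each ZFP. The authors used Trimmomatic 0.36 for trimming, Bowtie2 2.3.5.1 for alignment to hg38 (fragment lengths 10 to 700 bp) and Picard 0.1.8 for duplicates. They called narrow peaks with MACS2 2.2.7.1, each library against its batch's mock IP, at an FDR of 0.05. Versions are from the submitters' processing notes. No source used here gives the mapping quality filter or, for each library, its read total or batch. The methods state an approximate depth for all libraries. Each deposited list gives a fold over mock IP, −log10 p-values and −log10 q-values, and a score of 10 times −log10 q. Mock IP peak lists were not used here.

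Peaks of the 2 replicates overlapping by at least 1 bp were merged into regions, each with the highest fold per replicate. Sequence classes were assigned from 201 bp around summits (at least 5 pentamers), from 1000 bp to each side for tandem repeats (units of 10 to 400 bp, 40% equal bases, 169 to 173 or 338 to 346 bp for alpha satellite), and from 31-base words shared with rDNA or mitochondrial DNA (50% or more). Genes came from GENCODE 44 and rDNA positions from RefSeq. Tests were two-sided exact permutation tests over ZFPs (Python 3.11.15, scipy 1.17.1), with Benjamini-Hochberg adjustment over 2 measures; the code was tested on simulated lists. The 2 ZFPs with no region were left out. The regions, classes and gene lists were chosen with earlier results of these data known. Named regions were the 10 with the highest lower fold per protein, those within 1 kb of a protein-coding TSS, at snRNA or splicing factor genes, and those in all 4 lists near a protein-coding TSS; others were named to fill each class after their values were seen. Alternatives changed the overlap, the q threshold, the distances, the class rules and the replicates used.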

Additional observations from a re-analysis of the deposited data

How the results depend on the processing

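Of 86 recomputed values, 66 kept their size or their side of the test, 20 moved and 0 reversed. Settings that kept 2 replicates moved few: with the exon regions of the 4 genes kept, 11.3% of RBM5 regions lay within 1 kb of a TSS, and 1 splicing factor gene was near a region of each protein, since RBM5 and USP39 are on that list themselves. With TSSs of protein-coding genes only the shares near a TSS were 0.893% for RBM5 and 6.9% for U2AF1-labelled, and with 50% equal bases asked of tandem repeats, an alternative chosen after seeing the data, 92.5% of U2AF1-labelled regions stayed in a repeat or multi-copy class. Single lists gave other values. Without replicate 1 or 2, regions numbered 153 to 425 for RBM5 and 451 to 453 for U2AF1-labelled. The share near a TSS was 5.18 to 8.5% and 26.3 to 35.3%, the satellite-like share 55.1 to 58.2% and 25.5 to 33.3%, and the repeat or multi-copy share 86.9 to 90.8% and 59.0 to 71.1%. Splicing factor genes near a U2AF1-labelled peak were 0 to 1. The snRNA count was 0 under every alternative run. Neither difference from other ZFPs passed the exact permutation test under any alternative, including ZFPs with at least 20 regions only, chosen after seeing the data, where the differences were 24.0 and -19.5 points.

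No paired analysis was possible because a region needs both replicates and the tests use 1 value for each ZFP. No read totals were used, so a region missing from a list cannot be told apart from one below its depth, and most summits lie in sequence with several copies in hg38, where placement of reads sets which copy is called.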
